A study of Solanum lycopersicum with 9 samples.

Results

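Fruit pericarp of wild type tomato at the pink stage was compared with pericarp at the breaker stage, with 2 arrays for pink and 2 for breaker out of the 9 arrays of the series, which also holds turning and red ripe fruit. The fruits came from the cultivar Ailsa Craig, grown in an open greenhouse under hydroponic conditions, and the stages were set by the color and development of the fruit, without treatment or transgene. Total RNA was hybridized to Affymetrix TomGene ST 1.1 array strips, where several probes together read a transcript, and the values are log2 signals, so that a difference of 1 is a doubling of the signal. Of 67795 probe sets, 23194 are annotated with exactly 1 gene symbol, which makes 21326 genes, and these are described here. For a gene read by more than 1 probe set, the brightest over all 9 arrays was taken. The methods speak of 2 independent biological replicates per stage without saying whether fruits or plants were pooled, so the p-values cover array-to-array spread, which may be technical, and their small number limits the precision of every value. In bulk tissue a lower signal can mean less RNA per cell or fewer cells that hold it, and both readings cannot be told apart.

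Breaker is the stage at which the green fruit begins to change color, and pink is a later stage at which color covers much of the fruit before it turns fully red. Tomato is a climacteric fruit, in which ethylene made from S-adenosylmethionine by ACC synthase and ACC oxidase sets off ripening through receptors, EIN2 and EIN3-like factors. During ripening chloroplasts turn into chromoplasts, chlorophyll is broken down, lycopene accumulates, and pectin, cellulose and xyloglucan of the cell wall are loosened by enzymes such as polygalacturonase, beta-galactosidases, endoglucanases and expansins. Marker genes were set against the labelled tissue. PG2, the fruit polygalacturonase, had mean signals of 10.77 at pink and 9.30 at breaker, and 2A11, an abundant fruit transcript, had 10.87 at pink and 11.04 at breaker. The phytoene synthase gene Psy1, which commits carbon to carotenoids in fruit, had 9.27 at pink and 9.43 at breaker. The fourth marker of ripening fruit, the expansin gene EXP1, was at 1.35 at pink, against 4.72 at breaker. Of the green tissue markers, CAB4 had 2.03 at pink and 4.41 at breaker, and RBCS-1 and RBCS-2A lay between 1.48 and 2.09 at both stages, near the lower end of the scale. The methods name abscission zones in 1 place, and of its markers Ls, cel5, TAPG2 and TAPG4 lay between 1.04 and 1.96 at both stages. Another of them, Cel1, had 5.92 at pink and 6.08 at breaker.

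Far more genes were lower than higher at pink. With calls set at an adjusted p under 0.05 together with more than a 2-fold change, 353 of 21326 genes rose, which is 1.66%, and 2931 fell, which is 13.7%. The adjusted p came from limma over all 67795 probe sets. The median rise of the genes that rose was 1.43 on the log2 scale and the median fall was 1.56, while the median change of all genes with 1 symbol was -0.09. A change over 4 on the log2 scale, which is a factor of 16, was reached by 10 genes that rose and 42 that fell. Pink replicates differed by a median of 0.22 per gene and breaker replicates by 0.13, and the correlation of replicate arrays was 0.957 at pink and 0.988 at breaker. Array weights that limma estimates from this spread, used in an alternative fit, were 0.57 at pink, against 2.21 at breaker, whereas the fit described here pooled 1 spread over all stages.

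The shares of rises and falls differed with the signal at breaker. Of 8178 genes with a breaker signal under 2, 33 rose and 0 fell, and the lowest value on any pink or breaker array was 0.65. Of 4700 genes with a breaker signal of 4 to 6, 2.91% rose and 31.3% fell. Of 2595 genes at 6 to 8, 3.35% rose and 32.5% fell. Among the genes that fell, 251 had a mean signal at pink no higher than 1.96, the median of all probe sets at pink, and among those that rose 29 had a mean signal at breaker no higher than 1.84, the median at breaker. No detection call comes with the values, and signals this low cannot be told from background. The share of falls among called genes was 89.3% as deposited, 92.8% after each array was centered on its median, 69.1% after quantile normalization and 73.3% after cyclic loess normalization. Of the genes that rose 342 remained under quantile normalization, where 783 rose, and of those that fell 1715 remained, where 1753 fell. Under cyclic loess normalization 343 and 1865 remained, where 695 rose and 1911 fell. The median change of all probe sets was 0.09 as deposited and -0.03 under median centering, a shift of over 0.1. No called gene changed direction under any of these scalings, though the shift of median centering is too small to turn a call. The upper end of the signals differed between the stages before any comparison, because 1 in 10 probe sets lay above 4.40 and 4.55 on the pink arrays, against 5.09 and 5.15 on the breaker arrays. Its part in the counts was tested only through these scalings.

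**Figure D1:**
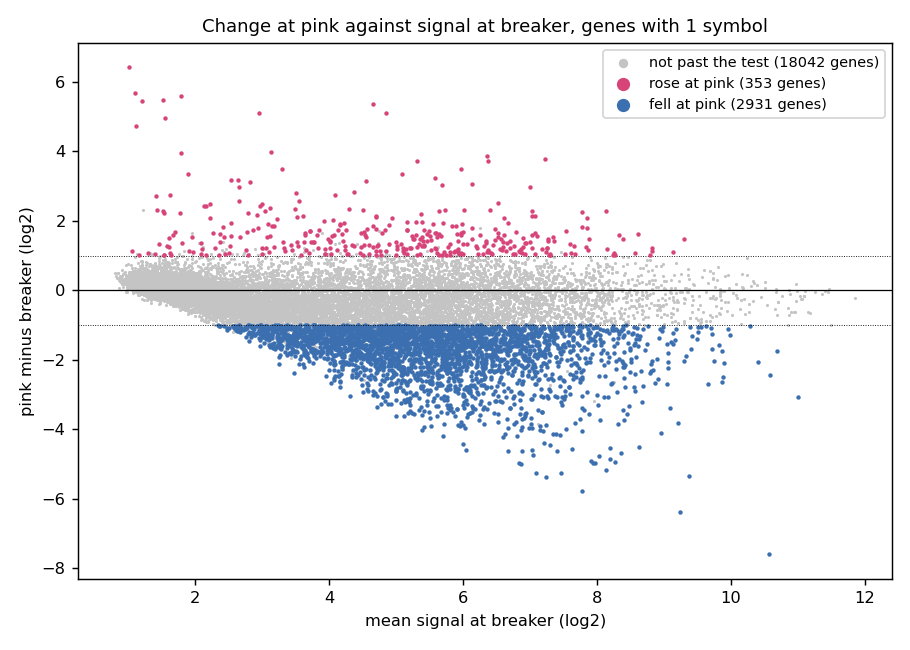
Each point is 1 of 21326 genes, with its mean log2 signal at breaker on the horizontal axis and the log2 difference of pink minus breaker on the vertical axis; dotted lines mark a difference of 1 in either direction. The 353 genes that rose are spread over the whole range of signals, and the 2931 that fell lie at breaker signals above 2, most of them between 4 and 8.

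The 12 largest rises among genes with a name or a description included 2 proline-rich proteins, 3 heat shock proteins, a heat shock factor, an endoglucanase and a lipase. Another 36 genes with rises as large, up to 5.37, had no description and are only counted. The descriptions of genes named by LOC and a number come from the study's list of strongly changed genes, which was picked on these samples, so their place among the largest changes is no independent evidence. LOC101250534, described as a 14 kDa proline-rich protein, had log2 signals of 7.03 and 7.85 at pink, against 0.98 and 1.04 at breaker (log2 change 6.43, standard error 0.41, adjusted p = 5.15e-05). LOC101251407, a second 14 kDa proline-rich protein, had 6.79 and 7.19 at pink, against 1.44 and 1.59 at breaker, a rise of 5.48. Neither was above the lower end of the scale at breaker, and both were in the middle of the range at pink. LOC101246642, described as tropinone reductase-like protein 16, had 6.59 and 6.96 at pink, against 1.08 and 1.13 at breaker (log2 change 5.67, adjusted p = 5.88e-06). LOC101251362, a lipase, which splits ester bonds of lipids, had 7.64 and 7.16 at pink, against 1.72 and 1.86 at breaker (5.61 higher). LOC101264046, like cinnamoyl-CoA reductase, an enzyme on the way to lignin monomers, had 6.59 and 6.77 at pink, against 1.26 and 1.17 at breaker (log2 change 5.47). These 5 genes stood at 1.86 or less on both breaker arrays and at 6.59 or more on both pink arrays. Cel2, an endo-beta-1,4-glucanase of ripening fruit, started higher, with 10.21 and 10.22 at pink, against 6.50 and 6.21 at breaker (log2 change 3.86, standard error 0.19, adjusted p = 2.05e-05). LOC101261911, described as like the crossover junction endonuclease EME1B, had 6.86 and 6.72 at pink, against 3.84 and 2.75 at breaker, and LOC544001, the Kunitz trypsin inhibitor 4, one of the plant inhibitors of proteases, had 5.44 and 5.98 at pink, against 2.47 and 2.60 at breaker. Their rises were 3.50 and 3.18, and the breaker arrays of LOC101261911 lay over 1 apart. The other 4 of the 12, er-sHSP, HSP21, vis1 and HSFA3, are given with the heat shock genes.

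The 12 largest falls took in a lectin, a wall glycoprotein, an endoglucanase, the entry enzyme of phenylpropanoids and 5 transport proteins. Another 15 genes with falls as large, up to 5.16, had no description. LOC101245043, described as agglutinin isolectin I, a lectin that binds chitin, had 3.24 and 2.68 at pink, against 10.45 and 10.68 at breaker. This was a fall of 7.61 (standard error 0.23, adjusted p = 4.24e-06), the largest change of any gene with 1 symbol. LOC101252504, an arabinogalactan-protein, one of the glycoproteins of the wall and plasma membrane, had 2.97 and 2.75 at pink, against 8.65 and 9.82 at breaker and fell by 6.38. Cel8, an endo-beta-1,4-glucanase like Cel2, had 2.51 and 1.48 at pink, against 7.44 and 8.11 at breaker and fell by 5.78 (adjusted p = 6.99e-05). Cel2 and Cel8 thus stood in opposite order, Cel2 high at pink and Cel8 high at breaker. LOC101243656, a phenylalanine ammonia-lyase, which opens the phenylpropanoid pathway, had 2.11 and 1.65 at pink, against 6.87 and 7.62 at breaker and fell by 5.37. Among the transport proteins, LOC101249191, like multidrug and toxin extrusion protein 2, had 3.89 and 4.18 at pink, against 9.24 and 9.51 at breaker and fell by 5.34. LOC101254595, like the organic cation/carnitine transporter 3, had 1.89 and 1.77 at pink, against 7.41 and 6.76 at breaker. LOC101268078, of the major facilitator superfamily, had 2.08 and 2.33 at pink, against 7.58 and 7.34 at breaker. Both fell by 5.26, with pink arrays near the lower end of the scale. LOC101263374, a purine permease, had 2.96 and 3.53 at pink, against 8.34 and 7.71 at breaker, and LOC101249334, of the solute carrier family 35, had 2.23 and 2.29 at pink, against 6.61 and 7.15 at breaker, with falls of 4.78 and 4.62. LOC101250066, a Rop guanine nucleotide exchange factor, which activates small GTPases of plants, had 2.57 and 3.38 at pink, against 7.66 and 8.21 at breaker and fell by 4.96. The wound-induced glucosyltransferase twi1 had 2.89 and 3.80 at pink, against 9.11 and 7.44 at breaker, so that its breaker arrays lay 1.67 apart, and it fell by 4.93 (standard error 0.61, adjusted p = 0.00129). ER5, an ethylene-responsive gene of tomato like those of late embryogenesis abundant proteins, had 2.75 and 2.98 at pink, against 7.97 and 6.64 at breaker and fell by 4.44. Every one of these 24 changes kept its call when any single array was left out and under each scaling tried.

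**Figure D2:**
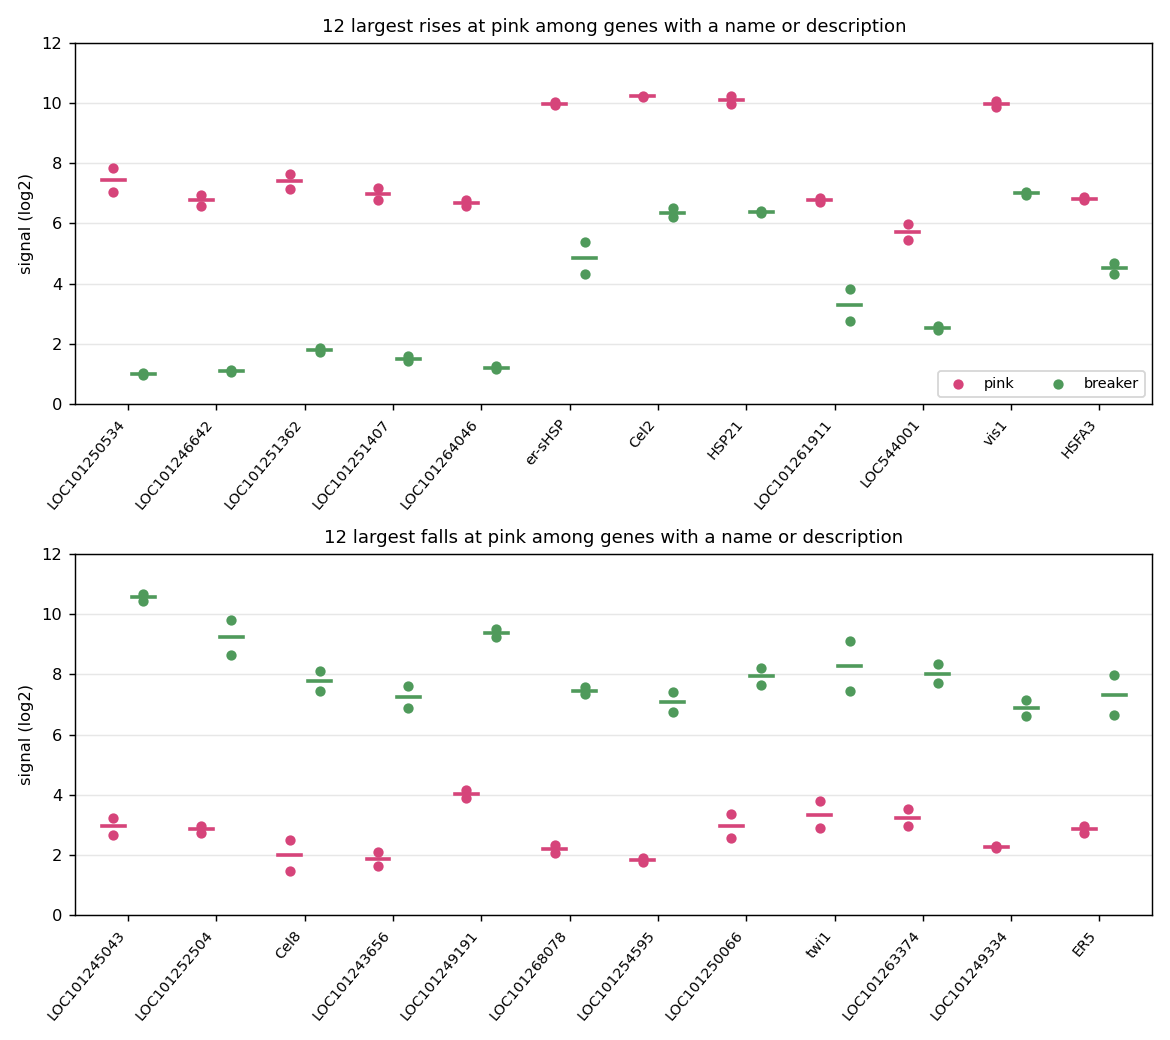
Log2 signal of each pink and each breaker array (points) and the mean of the 2 arrays (bars) for the 12 genes with the largest rises, above, and the 12 with the largest falls, below. For every gene shown the arrays of a stage lie closer to each other than to those of the other stage, and replicates lie over 1 apart only for the breaker arrays of er-sHSP, LOC101261911, LOC101252504, twi1 and ER5 and the pink arrays of Cel8.

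The stages next to pink differed in which of these genes they shared with it, and the pink arrays are the same ones that chose the genes. Over all 21326 genes, 2.34% were called higher and 0.933% lower at pink than at turning, and 1.66% higher and 19.3% lower at pink than at red ripe. The tropinone reductase-like LOC101246642 stood at a mean of 1.11 in breaker, 1 in turning, 6.78 in pink and 1.14 in red ripe fruit, so that of the 12 rises it alone was near the lower end of the scale at every stage but pink (pink minus turning 5.78, adjusted p = 5.03e-06; pink minus red ripe 5.64, adjusted p = 1.54e-06). The lipase LOC101251362 was 5.12 higher at pink than at turning (adjusted p = 1.56e-05) and 2.18 higher than at red ripe (adjusted p = 7.14e-05). The proline-rich LOC101251407 was 4.82 higher at pink than at turning (adjusted p = 4.86e-05), and its difference to red ripe was -0.57 (adjusted p = 0.122). LOC101264046 had a mean of 5.12 at turning and 1.18 at red ripe, with 6.68 at pink. It was 5.50 higher at pink than at red ripe (adjusted p = 1.43e-05). Cel2 was 1.76 higher at pink than at turning (adjusted p = 0.00353), with a mean of 10.60 at red ripe. Among the falls the agglutinin LOC101245043 was the exception at turning, where its mean was 10.35. Its difference of pink minus turning was -7.39 (adjusted p = 5.03e-06), and at red ripe its mean was 9.20. The phenylalanine ammonia-lyase LOC101243656 had a turning mean of 4.35, against 7.25 at breaker (pink minus turning -2.47, adjusted p = 0.0169). The other 10 falls had pink minus turning differences of -1.40 to 0.61, none past the test, and red ripe means of 2.16 to 8.99. The upper end of the signals split the stages in the same way. On the turning arrays 1 in 10 probe sets lay above 4.17 and 4.51, near the 4.40 and 4.55 of pink. The red ripe arrays had 5.24 to 5.43, nearer to the 5.09 and 5.15 of breaker. The part of this in the differences between stages was not tested.

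**Figure D3:**
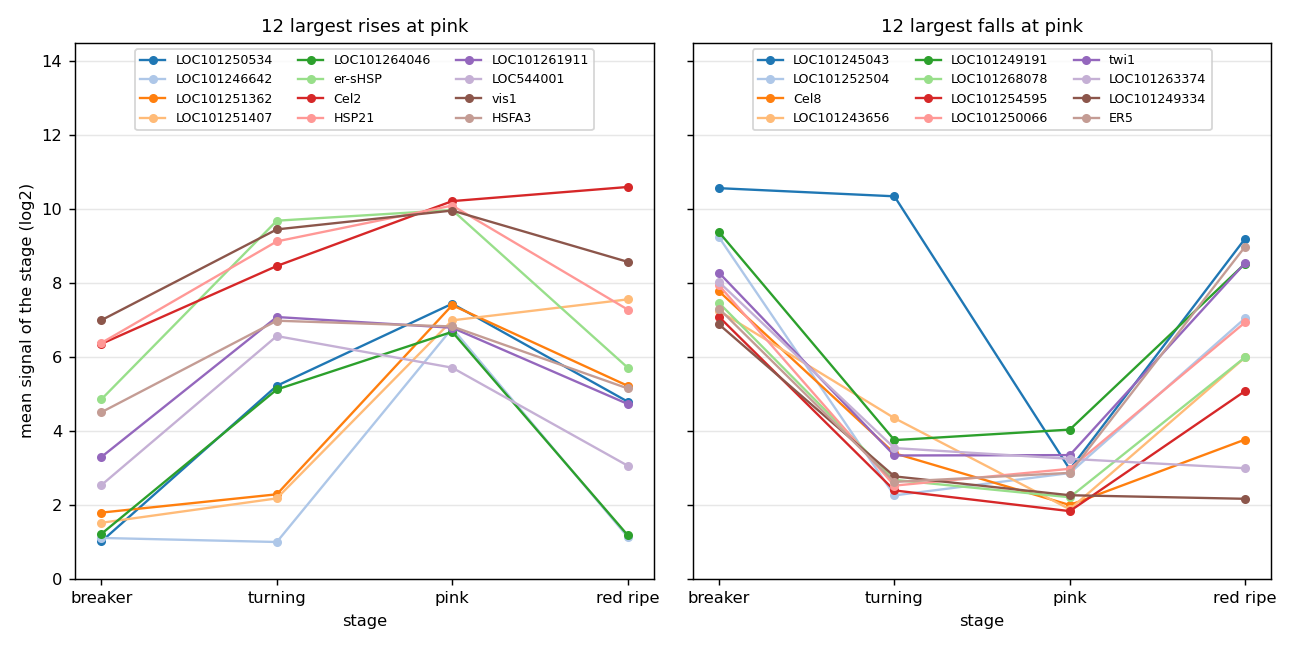
Mean log2 signal of the 4 stages, breaker to red ripe, for the 12 largest rises, left, and the 12 largest falls, right. LOC101246642, LOC101251362 and LOC101251407 rise between turning and pink, and LOC101245043 falls between turning and pink, while most other lines move between breaker and turning.

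Named genes, together with some known by LOC and a number, were then grouped by function into 39 lists of 546 genes, of which 19 rose and 104 fell. The lists were completed from the annotation of the array after its values had been seen, so their counts are a description and carry no test. Among the 897 genes with a name other than LOC and a number 2.34% rose and 17.2% fell. This is the nearer background for these lists, though it leaves out their members named by LOC and a number. A list whose share lies near it shows nothing particular to its members. The list of small heat shock proteins and a heat shock factor had the largest share of rises. Lists of ethylene signaling, light signaling, MAP kinases, GRAS factors and pectin degradation had the largest shares of falls, from 41.7% to 46.7%. These shares were not matched for signal. Of all genes with a breaker signal of 4 to 6, 31.3% fell, and of those at 6 to 8, 32.5% fell. Under a breaker signal of 2, 0 fell. No member of the lists of MYB factors, homeobox factors, abscisic acid or cell cycle genes passed the test. In 3 of these 4 lists most members had mean signals under 3 at both stages (12 of 16 for the cell cycle, 6 of 8 for MYB factors and 5 of 7 for homeobox factors). For abscisic acid this held for 3 of 7 members. At an unadjusted p under 0.05 with a fold change over 2, 1 cell cycle gene rose and 1 fell, and none of the other 3 lists did. Under other settings 1 cell cycle gene rose (quantile and cyclic loess normalization, array weights, only the pink and breaker arrays in the fit, and without turning replicate 1 or 2) and 1 fell (array weights, and without turning replicate 1 or 2). There was 1 rise of a MYB factor under quantile normalization and 1 fall of a homeobox factor without pink replicate 2.

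**Figure D4:**
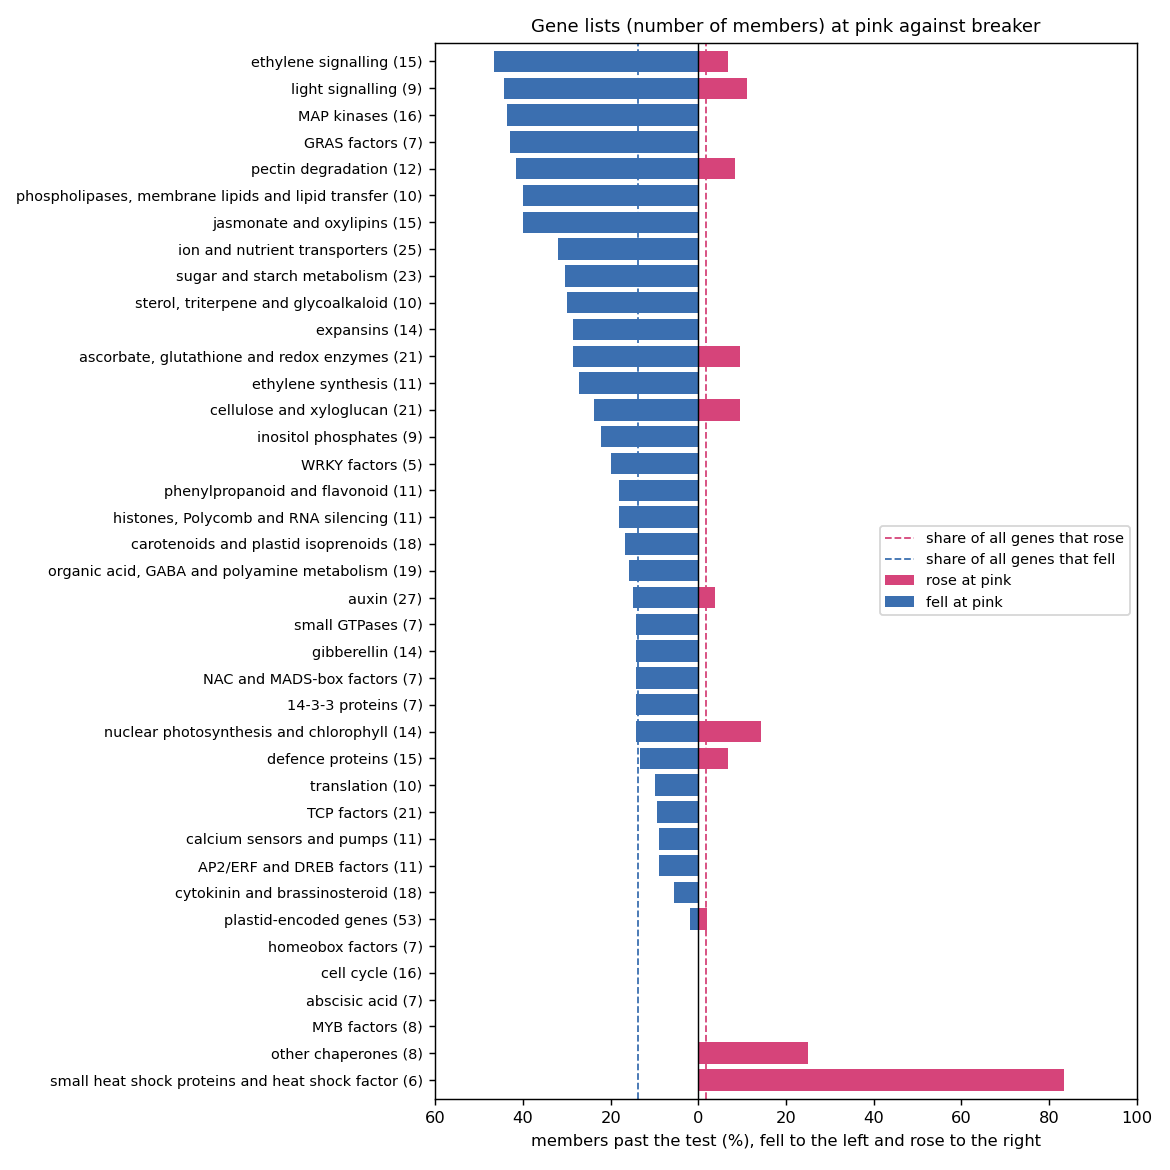
Share of the members of each list that fell at pink (bars to the left, in percent) and rose at pink (bars to the right), with the number of members in brackets. Dashed lines give the shares over all 21326 genes, 13.7% for falls and 1.66% for rises, and are not matched for signal.

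Of 6 genes of small heat shock proteins and a heat shock factor, 5 rose and none fell, with a median change of 2.64. The first plan of the lists had placed heat shock factors with the other chaperones. Small heat shock proteins hold unfolding proteins in solution, and heat shock factors switch on their genes. The er-sHSP gene, whose product sits in the endoplasmic reticulum, had 9.92 and 10.03 at pink, against 5.40 and 4.31 at breaker (log2 change 5.12, standard error 0.31, adjusted p = 4.25e-05). HSP21, of plastids, had 10.23 and 9.96 at pink, against 6.34 and 6.42 at breaker (log2 change 3.72, standard error 0.15). The vis1 gene, of a small heat shock protein of ripening fruit, had 9.87 and 10.05 at pink, against 7.05 and 6.94 at breaker (log2 change 2.97). The gene of the mitochondrial small heat shock protein, MTSHP, had 9.94 and 9.94 at pink, against 8.22 and 7.48 at breaker (log2 change 2.09, adjusted p = 6.83e-04). All 4 lay between 9.87 and 10.23 on the pink arrays, while their breaker values spanned 4.31 to 8.22. HSFA3, a heat shock transcription factor, had 6.87 and 6.78 at pink, against 4.68 and 4.33 at breaker and rose by 2.32 (adjusted p = 1.62e-04). The sixth member, HSP17.4, had 1.92 and 2.75 at pink, against 1.42 and 1.24 at breaker (log2 change 1.01, adjusted p = 0.0536), near the lower end of the scale.

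Of 8 other chaperones 2 rose and none fell. Cpn21, a co-chaperonin of plastids, had 9.02 and 9.12 at pink, against 7.75 and 7.91 at breaker (log2 change 1.24, standard error 0.15, adjusted p = 0.00119). HSP70 had 10.14 and 9.94 at pink, against 8.84 and 8.80 at breaker (log2 change 1.22, standard error 0.15, adjusted p = 0.00113). Both were well expressed at breaker already, and their rises were close to the fold threshold. The cytosolic chaperones Hsp90-1 and HSC80 had changes of -0.09 and -0.34, and the endoplasmic reticulum chaperone BIP had -0.22, none past the test. HSP21 was 0.97 higher at pink than at turning (adjusted p = 0.0174), below the fold threshold, and er-sHSP, vis1 and HSFA3 differed from turning by 0.29, 0.51 and -0.16. Against red ripe, er-sHSP was 4.26 higher, HSP21 2.81, vis1 1.39 and HSFA3 1.68 (adjusted p = 3.13e-05, 9.28e-06, 2.21e-04 and 2.59e-04). The calls of er-sHSP, HSP21, vis1, MTSHP, HSFA3, Cpn21 and HSP70 were kept under every setting tried.

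Of 11 genes of ethylene synthesis 3 fell and none rose. SAM3, an S-adenosylmethionine synthetase, had 4.92 and 4.83 at pink, against 8.48 and 8.42 at breaker and fell by 3.58 (standard error 0.29, adjusted p = 1.62e-04). The ACC oxidase aco5 had 2.27 and 1.81 at pink, against 5.83 and 4.50 at breaker and fell by 3.13 (adjusted p = 0.00122). The ACC synthase ACS1A had 1.56 and 1.52 at pink, against 4.14 and 4.18 at breaker and fell by 2.62 (adjusted p = 3.42e-05). In each of them the stages lay over 2 apart on the log2 scale. ACS2, the ACC synthase known for ethylene of ripening fruit, had 5.10 and 5.65 at pink, against 5.70 and 5.03 at breaker, so that the arrays of the stages overlapped (log2 change 0.01, standard error 0.26). ACS2 was, however, 2.37 higher at pink than at turning (adjusted p = 0.00391). Another ACC oxidase, ACO1, had 1.60 and 1.73 at pink, against 1.45 and 1.53 at breaker, at the lower end of the scale, as had 5 of the other members.

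Of 15 genes of ethylene signaling 7 fell and 1 rose, with a median change of -0.97. EIN2, the central membrane protein of the pathway, had 4.32 and 4.03 at pink, against 7.17 and 7.38 at breaker and fell by 3.10 (standard error 0.18, adjusted p = 3.94e-05). The EIN3-like factor EIL3 had 3.75 and 4.04 at pink, against 7.05 and 6.71 at breaker and fell by 2.99. The related EIL4 and EIL1 fell by 1.68 and 1.64 (adjusted p = 0.0188 and 0.0245), and EIL2 had a change of -0.21 with signals under 3. Among the receptors, ETR4 had 7.11 and 7.43 at pink, against 9.22 and 8.91 at breaker, and fell by 1.8, ETR6 fell by 1.06 (adjusted p = 0.0245), and ETR5 had 4.96 and 4.84 at pink, against 3.41 and 3.62 at breaker and rose by 1.39 (adjusted p = 0.0136). The receptors thus moved apart, and ETR1 and ETR2 had changes of 0.18 and 0.86, both under the fold threshold (adjusted p = 0.547 and 0.0163). EBF2, an F-box protein that marks EIN3-like factors for breakdown, fell by 1.04 (adjusted p = 0.00267). EIN2 differed between pink and turning by -0.69 (adjusted p = 0.115), and EIL3 was lower at pink than at turning (difference -1.14, adjusted p = 0.0126). The falls numbered 4 under quantile and under cyclic loess normalization, and also 4 without breaker replicate 1, without breaker replicate 2 or without pink replicate 1. ETR5 was not called without breaker replicate 1 or 2 or without pink replicate 1 (log2 change 1.28 to 1.49, adjusted p = 0.0610 to 0.1). ETR6 was not called under quantile normalization, under cyclic loess normalization, without breaker replicate 1 or 2 or without pink replicate 2 (log2 change -1.18 to -0.60, adjusted p = 0.0806 to 0.173). EIL1 was not called under quantile normalization, under cyclic loess normalization, without breaker replicate 1 or 2 or without pink replicate 1 or 2 (log2 change -1.73 to -1.22, adjusted p = 0.0841 to 0.148). EIL4 was not called with only the pink and breaker arrays in the fit, without breaker replicate 1 or 2 or without pink replicate 1 (log2 change -1.75 to -1.23, adjusted p = 0.0504 to 0.115). EBF2 was not called under quantile normalization, under cyclic loess normalization or without pink replicate 1 (log2 change -0.96 to -0.75, adjusted p = 0.0151 to 0.0273).

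Of 11 AP2/ERF and DREB factors, the family that carries the ethylene response and part of the stress response to DNA, only JERF1 was called. It had 7.78 and 8.05 at pink, against 9.03 and 8.93 at breaker and fell by 1.07 (adjusted p = 0.00227), while the other 10 had changes of -0.63 to 0.49. JERF1 was not called under quantile normalization, under cyclic loess normalization or without pink replicate 1 (log2 change -0.96 to -0.89, adjusted p = 0.00271 to 0.0118). Without breaker replicate 1 the list had 2 falls. The ripening factors NAC-NOR, TDR4 and TM29 belong to the NAC and MADS-box families. NAC-NOR, whose mutant fruit does not ripen, had 10.73 and 10.82 at pink, against 10.76 and 11 at breaker (log2 change -0.11, adjusted p = 0.734), and its arrays overlapped. NAC-NOR was 2.11 higher at pink than at turning (adjusted p = 3.78e-04). TDR4, the FRUITFULL-like factor of fruit, had 8.28 and 8.60 at pink, against 7.77 and 8.31 at breaker (log2 change 0.40, adjusted p = 0.290). TM29, a SEPALLATA-like factor, had 5.84 and 5.87 at pink, against 7.11 and 7.15 at breaker and fell by 1.28 (adjusted p = 0.00190), the single call among 7 members. TM29 was not called under quantile normalization or under cyclic loess normalization (log2 change -0.93 to -0.92, adjusted p = 0.0242 to 0.0355). The coactivator ER24, which is induced by ethylene, had 7.84 and 7.54 at pink, against 7.64 and 7.31 at breaker (log2 change 0.22, adjusted p = 0.512), and was lower at pink than at turning (difference -1.35, adjusted p = 0.00667).

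Enzymes of the cell wall moved in both directions. Of 12 genes of pectin degradation 1 rose and 5 fell. PG2, the polygalacturonase that cuts pectin in ripening fruit, had 10.81 and 10.72 at pink, against 9.09 and 9.50 at breaker and rose by 1.47 (standard error 0.17, adjusted p = 8.36e-04). Of 6 beta-galactosidases, which trim side chains of pectin, 4 fell. TBG6 had 3.79 and 3.92 at pink, against 7.06 and 8.28 at breaker and fell by 3.82 (adjusted p = 3.16e-04). TBG3 had 2.91 and 2.12 at pink, against 5.37 and 4.89 at breaker, and TBG1 had 4.07 and 3.20 at pink, against 5.91 and 6.49 at breaker, with falls of 2.62 and 2.57. TBG2 fell by 1.81 (adjusted p = 0.00124), as did the pectin methylesterase PMEU1 by 1.59 (adjusted p = 0.00543). TBG5 had 5.52 and 5.66 at pink, against 5.55 and 5.99 at breaker (log2 change -0.18), and TBG7, with signals under 3, had a change of -0.61 (adjusted p = 0.703 and 0.333), neither past the test. The fruit pectin methylesterase PME2.1 had a change of 0.04 at signals over 8. Falls numbered 3 under quantile normalization and 3 without breaker replicate 2. TBG1 was not called under quantile normalization, without breaker replicate 2 or without pink replicate 2 (log2 change -2.28 to -2.08, adjusted p = 0.0625 to 0.0874). PMEU1 was not called under quantile normalization or without breaker replicate 2 (log2 change -1.33 to -1.07, adjusted p = 0.0521 to 0.0545).

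Of 21 genes of cellulose and xyloglucan 2 rose and 5 fell. Besides Cel2, the xylosidase XYL1 rose, with 5.94 and 5.39 at pink, against 4.43 and 4.27 at breaker (log2 change 1.32, adjusted p = 0.0262). XYL2 had 2.43 and 2.64 at pink, against 5.52 and 5.32 at breaker and fell by 2.89 (adjusted p = 3.46e-05). The pair thus moved in opposite directions, as Cel2 and Cel8 did. The xyloglucan endotransglycosylase tXET-B1 had 1.95 and 2.52 at pink, against 5.85 and 5.67 at breaker and fell by 3.53, and the related XTH1 and XET2 fell by 1.64 and 1.22 (adjusted p = 6.61e-04 and 0.0316). XTH5, with 9.08 and 9.72 at pink, against 9.31 and 9.34 at breaker, was the member of this family with the highest signal and had a change of 0.08. Cel1 had 6.07 and 5.76 at pink, against 6.99 and 5.16 at breaker, where the breaker arrays enclosed the pink ones. XYL1 was not called without breaker replicate 1 or 2, without red ripe replicate 1 or 2 or without pink replicate 1 (log2 change 1.04 to 1.40, adjusted p = 0.0506 to 0.159). In these cases 1 member of the list rose. XET2 was not called with array weights, with only the pink and breaker arrays in the fit, without breaker replicate 2, without red ripe replicate 1, 2 or 3 or without pink replicate 2 (log2 change -1.22 to -0.73, adjusted p = 0.0529 to 0.168).

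Expansins loosen the wall without cutting it, and of 14 members 4 fell and none rose. EXP1, the expansin best known from ripening fruit, had 1.57 and 1.12 at pink, against 4.30 and 5.13 at breaker and fell by 3.37 (standard error 0.27, adjusted p = 1.62e-04). EXP1 was at the lower end of the scale at turning too, with 1.74 and 1.42, and had 4.97, 5.05 and 4.89 at red ripe. EXLA1, an expansin-like gene, had 2.75 and 2.94 at pink, against 5.92 and 5.16 at breaker and fell by 2.70. EXPA5 and EXPA4 fell by 1.78 and 1.55 (adjusted p = 0.00198 and 0.00898). The other 10 had changes of -0.79 to 0.39, and 9 of them had mean signals under 3 at both stages. EXPA4 was not called with only the pink and breaker arrays in the fit or without breaker replicate 2 (log2 change -1.55 to -1.25, adjusted p = 0.0591 to 0.0798).

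**Figure D5:**
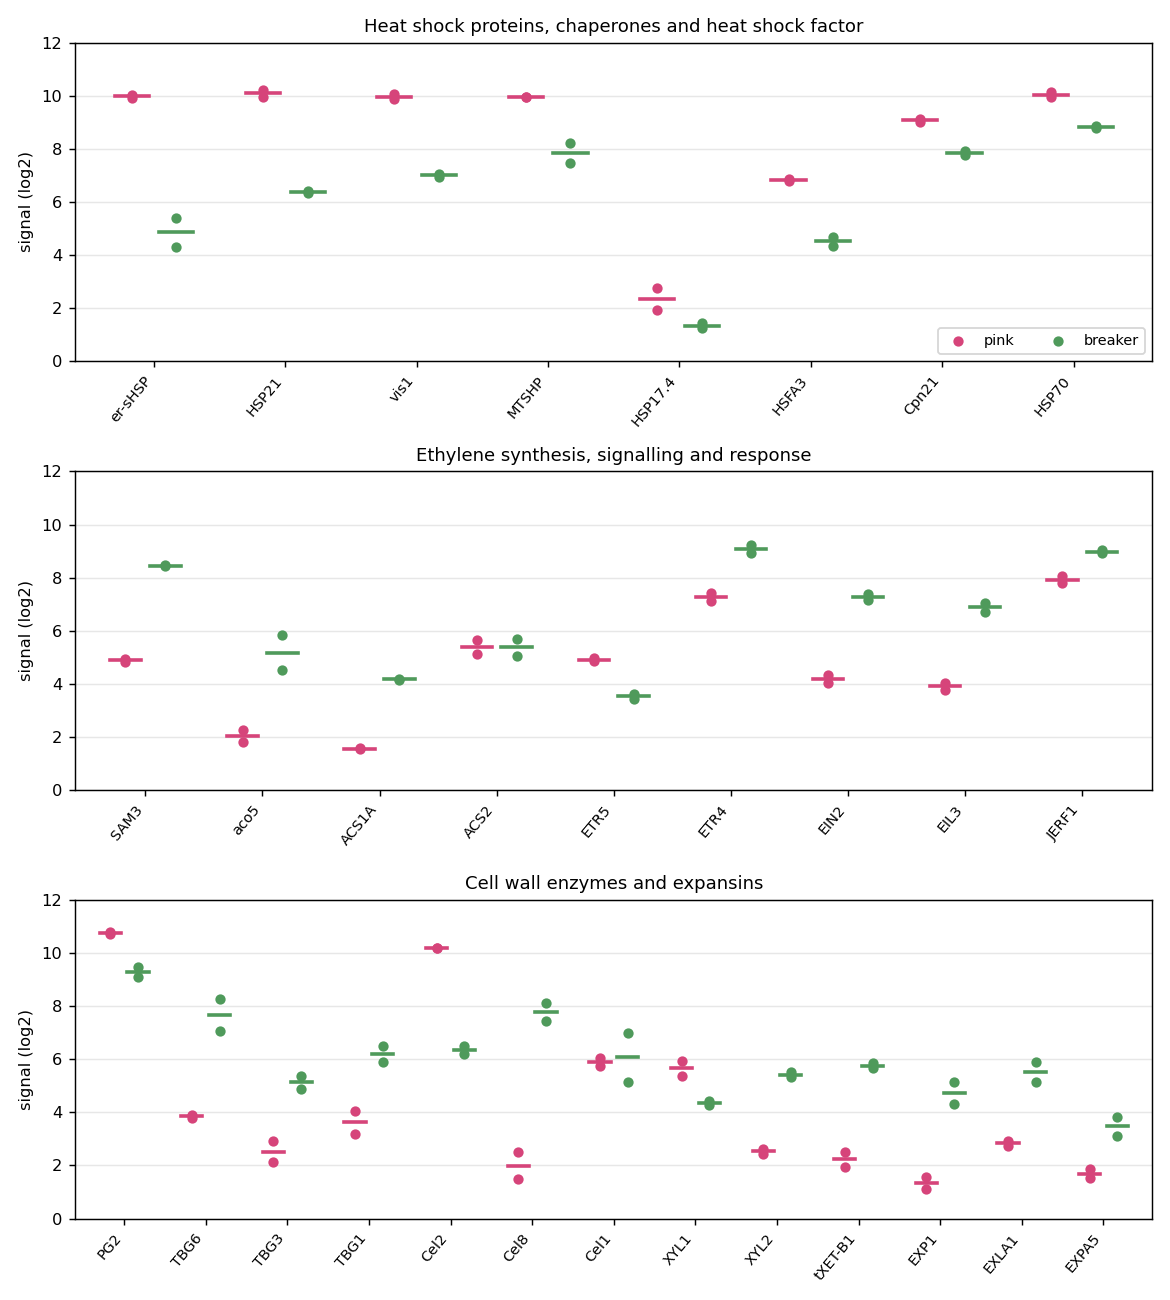
Log2 signal of each pink and each breaker array (points) with the mean of each stage (bars) for heat shock genes, ethylene genes and cell wall genes. The heat shock genes, ETR5, PG2, Cel2 and XYL1 are higher at pink, though HSP17.4 lies near the lower end of the scale and was not past the test. ACS2 and Cel1 overlap between the stages, and the other ethylene and wall genes shown are lower at pink.

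Transcripts of the plastid genome, which codes for part of photosynthesis and of the plastid's own gene expression, were rarely past both thresholds. Of 53 genes 1 rose and 1 fell, against 1.66% and 13.7% of all genes, and the median change was -0.21. Most members had breaker signals of 8 or more, where 2.41% of all genes rose and 26.7% fell. The gene of ribosomal protein rps14 had 9.52 and 9.78 at pink, against 8.59 and 8.56 at breaker and rose by 1.08 (adjusted p = 0.00490). The photosystem II gene psbL had 8.74 and 8.96 at pink, against 9.94 and 9.97 at breaker and fell by 1.11 (adjusted p = 0.00396). The remaining 51 had changes of -0.995 to 0.87, and none of the 53 had a mean under 6.26 at either stage. The 0.87 and the 6.26 are those of infA, whose probe set is numbered apart from those of the other members. Whether it reads a plastid transcript was not tested. Subunit genes of the NADH dehydrogenase-like complex differed, with changes of -0.94 for ndhB, -0.93 for ndhH and -0.04 for ndhA, and the ATP synthase gene atpF had -0.995. The RNA polymerase genes rpoC2 and rpoA had 0.49 and 0.42. Counts this small moved with the settings. There were 4 falls and 0 rises under median centering, 2 of each under cyclic loess normalization, 2 rises under quantile normalization, and 10 falls and 2 rises with no fold threshold, which is 18.9% and 3.77% of the list, against 18.4% and 3.08% of all genes at that setting. Without breaker replicate 1 there were 3 falls, without pink replicate 1 there were 2 rises, and without pink replicate 2 there were 2 falls and 0 rises. The gene rps14 was not called under median centering or without pink replicate 2 (log2 change 0.95 to 0.96, adjusted p = 0.00834 to 0.0278). The gene psbL was not called without pink replicate 1 (log2 change -1, adjusted p = 0.0228). The values of rps7 and ycf1 were identical on all 9 arrays, as were those of rpl2 and ycf2, so that each pair counts as 1 measurement.

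Of 14 nuclear genes of photosynthesis and chlorophyll 2 rose and 2 fell, which is 14.3% each, against 2.34% and 17.2% of named genes. SGR1, the stay-green protein that starts the breakdown of chlorophyll, had 8.23 and 8.36 at pink, against 6.63 and 7.24 at breaker and rose by 1.36 (adjusted p = 0.00276). POR2, a protochlorophyllide reductase, which acts in chlorophyll synthesis, had 7.72 and 7.84 at pink, against 6.76 and 6.72 at breaker and rose by 1.04 (adjusted p = 0.0197), so that a gene of breakdown and a gene of synthesis were both higher. CAB4, a chlorophyll a/b-binding protein, had 1.97 and 2.08 at pink, against 4.86 and 3.96 at breaker and fell by 2.39 (adjusted p = 7.04e-04). GLO2, a glycolate oxidase of photorespiration, had 4.16 and 4.82 at pink, against 7.23 and 7.81 at breaker and fell by 3.03 (adjusted p = 4.40e-04). GLO2 was also lower at pink than at turning (difference -2.42, adjusted p = 0.00669). The photosystem I subunit psaD had 9.13 and 9.22 at pink, against 10.12 and 10.18 at breaker (log2 change -0.98, adjusted p = 0.0117), and the oxygen-evolving complex genes PSBO and PSBP had changes of -0.51 and 0.01. POR2 was not called under median centering, without breaker replicate 1 or 2 or without pink replicate 1 or 2 (log2 change 0.93 to 1.1, adjusted p = 0.0307 to 0.122). There were 4 falls without pink replicate 2.

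Of 18 genes of carotenoids and plastid isoprenoids none rose and 3 fell, which is 16.7%, near the 17.2% of named genes that fell. Psy1 had 9.30 and 9.23 at pink, against 9.42 and 9.43 at breaker (log2 change -0.16, adjusted p = 0.699), and the desaturases pds and zds, which act after it on the way to lycopene, had changes of 0.38 and 0.44 (adjusted p = 0.163 and 0.219). The dxs gene, of the synthase that opens the plastid isoprenoid pathway, had 7.08 and 7.29 at pink, against 8.50 and 8.67 at breaker and fell by 1.40 (standard error 0.15, adjusted p = 5.86e-04). The carotene hydroxylases CYP97C11 and CYP97A29, which act after lycopene, fell by 1.47 and 1.05 (adjusted p = 0.00212 and 0.0286). CYP97C11 had 2.25 and 2.39 at pink, against 3.65 and 3.92 at breaker, so that both hydroxylases were in the lower part of the scale throughout. The lycopene cyclases CrtL-e-1 and LCY1 had signals under 3 at both stages. CYP97A29 was not called under quantile normalization, under cyclic loess normalization, without breaker replicate 1 or 2 or without pink replicate 1 or 2 (log2 change -1.19 to -0.68, adjusted p = 0.0521 to 0.391). Outside the lists, CHRD, of a protein that binds carotenoids in chromoplasts, had 6.69 and 6.67 at pink, against 5.47 and 5.74 at breaker and rose by 1.08 (adjusted p = 0.00723). The plastid protease gene ftsH6 had 4.55 and 4.84 at pink, against 2.77 and 3.47 at breaker and rose by 1.58, and PDF1B, of a peptide deformylase of organelles, had 7.12 and 6.96 at pink, against 5.93 and 6 at breaker and rose by 1.08 (adjusted p = 0.0112 and 0.00237). With the 18 listed ones these 3 make up the 21 named genes that rose, and the 3 were picked out after their values had been seen. CHRD was not called under median centering or without breaker replicate 1 (log2 change 0.94 to 0.96, adjusted p = 0.0126 to 0.0709). The gene ftsH6 was not called without breaker replicate 1 or without pink replicate 2 (log2 change 1.23 to 1.43, adjusted p = 0.0606 to 0.0889). PDF1B was not called under median centering or without pink replicate 1 (log2 change 0.96 to 1, adjusted p = 0.00353 to 0.0139).

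Of 27 auxin genes 1 rose and 4 fell, and 18 of the 22 others had mean signals under 3 at both stages, among them the 9 genes of PIN efflux carriers in the list. The share of falls was 14.8%, near the 17.2% of named genes. ERabp1, an auxin-binding protein of the endoplasmic reticulum, had 9.30 and 9.35 at pink, against 8.09 and 8.20 at breaker and rose by 1.18 (adjusted p = 7.90e-04). The repressor IAA6 had 1.82 and 2.29 at pink, against 4.85 and 4.68 at breaker and fell by 2.71. ARF4, an auxin response factor that binds auxin response elements, had 2.15 and 2.48 at pink, against 4.79 and 4.90 at breaker, a fall of 2.53 (adjusted p = 0.00127). The related ARF1 had 4.42 and 4.20 at pink, against 6.47 and 6.39 at breaker, a fall of 2.12 (adjusted p = 6.93e-04). ARF3 fell by 1.95 (adjusted p = 4.49e-04), and ARF5 had -0.76, not past the test. Of 14 gibberellin genes 2 fell, which is 14.3%, again near that share. GA2ox2, of an oxidase that inactivates gibberellins, had 3.76 and 2.93 at pink, against 7.09 and 5.52 at breaker and fell by 2.96 (standard error 0.46, adjusted p = 0.00392). The DELLA repressor gene GAI had 2.89 and 3.22 at pink, against 5.20 and 5.54 at breaker and fell by 2.32 (adjusted p = 1.52e-04), and the receptor gene GID1 had a change of -0.03. GA2ox2 was not called with only the pink and breaker arrays in the fit (log2 change -2.96, adjusted p = 0.0546).

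Of 18 genes of cytokinin and brassinosteroid only SlCKX7, of a cytokinin oxidase, was called, with 1.77 and 1.48 at pink, against 3.61 and 4.56 at breaker and a fall of 2.46 (adjusted p = 0.00229). CYP85A1, of an oxidase late in brassinosteroid synthesis, had 6.48 and 7.16 at pink, against 6.15 and 5.54 at breaker (log2 change 0.98, adjusted p = 0.0983). None of the 7 abscisic acid genes was called, and the widest change among them was -0.995, of FLACCA, which serves the last step of synthesis (adjusted p = 0.0148). There was 1 fall in this list under median centering and 1 without breaker replicate 2. Of 15 genes of jasmonate and oxylipins 6 fell and none rose. The reductase opr3 of jasmonate synthesis had 3.25 and 3.09 at pink, against 5.95 and 6.27 at breaker and fell by 2.94 (adjusted p = 6.84e-05). Acx1A, an acyl-CoA oxidase of the last steps, had 3.05 and 3.67 at pink, against 5.30 and 5.17 at breaker and fell by 1.88, and the alpha-dioxygenase alpha-DOX2 fell by 1.74. The falls of loxD, aoc and Coi1, a lipoxygenase, allene oxide cyclase and the jasmonate receptor, were 1.47, 1.44 and 1.15 (adjusted p = 0.0401, 0.00390 and 0.0297). The lipoxygenases of fruit stayed apart from these. LOXB had 10.93 and 10.81 at pink, against 10.90 and 10.84 at breaker and a change of 0.00, and loxC, which serves fruit aroma, had 9.37 and 9.19 at pink, against 8.63 and 8.65 at breaker (log2 change 0.64, adjusted p = 0.0335). Falls of jasmonate and oxylipin genes numbered 3 under quantile normalization. The gene loxD was not called under quantile normalization, under cyclic loess normalization, with array weights, with only the pink and breaker arrays in the fit, without breaker replicate 1, without red ripe replicate 1, 2 or 3 or without pink replicate 2 (log2 change -1.47 to -0.93, adjusted p = 0.0632 to 0.246). The gene aoc was not called under quantile normalization (log2 change -1, adjusted p = 0.0137). Coi1 was not called under quantile normalization, under cyclic loess normalization, with only the pink and breaker arrays in the fit, without breaker replicate 1 or 2, without red ripe replicate 1, 2 or 3 or without pink replicate 2 (log2 change -1.22 to -0.57, adjusted p = 0.0504 to 0.362).

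Of 23 genes of sugar and starch metabolism 7 fell and none rose. The cell wall invertase lin5, which splits sucrose outside the cell, had 1.47 and 1.23 at pink, against 4.87 and 5.90 at breaker and fell by 4.04 (standard error 0.38, adjusted p = 3.52e-04). The sucrose transporter SUT1 had 3.96 and 3.66 at pink, against 7.21 and 6.23 at breaker and fell by 2.91 (adjusted p = 4.72e-04), while SUT2 and SUT4 had changes of -0.65 and -0.70. GWD, the glucan, water dikinase that starts starch breakdown, had 5.60 and 5.59 at pink, against 7.29 and 7.26 at breaker and fell by 1.68. The other falls were those of the hexose transporter ht3 and the kinases HXK4, Frk1 and FRK2, by 1.54, 1.53, 1.48 and 1.27. Sucrose phosphate synthase, sps, had 8.12 and 7.93 at pink, against 8.85 and 9.15 at breaker (log2 change -0.98, adjusted p = 0.00579), just short of the fold threshold. Falls numbered 4 under quantile normalization. The gene ht3 was not called under quantile normalization (log2 change -0.95, adjusted p = 0.135). Frk1 was not called under quantile normalization (log2 change -0.99, adjusted p = 0.00873). FRK2 was not called under quantile normalization, under cyclic loess normalization, without breaker replicate 1 or without pink replicate 2 (log2 change -1.17 to -0.63, adjusted p = 0.0300 to 0.116). Of 19 genes of organic acids, GABA and polyamines 3 fell, which is 15.8%, near the 17.2% of named genes that fell. The malic enzyme ME2 had 6.09 and 6.72 at pink, against 8.85 and 8.74 at breaker and fell by 2.39, and the GABA transaminases GABA-TP2 and GABA-TP1 fell by 1.70 and 1.22. Transaminase GABA-TP3 had a change of -1.25 (adjusted p = 0.0793), and the other malic enzyme, ME1, had -0.24. There were 5 falls under median centering. GABA-TP1 was not called under cyclic loess normalization (log2 change -0.99, adjusted p = 0.00950).

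Of 21 genes of ascorbate, glutathione and redox enzymes 2 rose and 6 fell. The iron superoxide dismutase FESOD had 9.99 and 9.87 at pink, against 8.06 and 8.60 at breaker and rose by 1.60 (standard error 0.19, adjusted p = 0.00103). The glutaredoxin GRX1 had 6.69 and 6.83 at pink, against 5.59 and 5.90 at breaker and rose by 1.02 (adjusted p = 0.00400). The copper/zinc superoxide dismutase of plastids, SODCP.2, went the other way from FESOD, with 5.95 and 5.57 at pink, against 7.14 and 7.70 at breaker and a fall of 1.66 (adjusted p = 0.00567). GME1, of the epimerase that feeds ascorbate synthesis, had 3.07 and 3.21 at pink, against 4.62 and 4.74 at breaker and fell by 1.54, and GSH1, of the enzyme that opens glutathione synthesis, had 7.60 and 7.66 at pink, against 9.31 and 8.90 at breaker and fell by 1.48. GSH2, of the next step, and the ascorbate genes GMP and DHAR1 fell by 1.42, 1.06 and 1.02 (adjusted p = 0.00964, 0.0264 and 0.0220). The cytosolic superoxide dismutase SODCC.1 and the catalase cat1 had changes of -0.05 and -0.01 at signals over 9. Falls numbered 3 under quantile and under cyclic loess normalization and 2 without breaker replicate 2. GRX1 was not called under median centering, without breaker replicate 1 or without pink replicate 2 (log2 change 0.86 to 0.95, adjusted p = 0.00686 to 0.0445). SODCP.2 was not called without breaker replicate 2 (log2 change -1.38, adjusted p = 0.0535). GSH2 was not called under quantile normalization, under cyclic loess normalization, with only the pink and breaker arrays in the fit or without breaker replicate 1 or 2 (log2 change -1.44 to -0.97, adjusted p = 0.0338 to 0.0836). GMP was not called under quantile normalization, under cyclic loess normalization, with only the pink and breaker arrays in the fit, without breaker replicate 2, without red ripe replicate 2 or without pink replicate 1 or 2 (log2 change -1.16 to -0.55, adjusted p = 0.0503 to 0.204). DHAR1 was not called under quantile normalization, under cyclic loess normalization, without breaker replicate 1 or 2 or without pink replicate 2 (log2 change -1.12 to -0.42, adjusted p = 0.0819 to 0.503).

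Of 11 genes of phenylpropanoids and flavonoids 2 fell, which is 18.2%, near the 17.2% of named genes that fell. The chalcone synthase CHS1, which opens flavonoid synthesis, had 3.96 and 4.20 at pink, against 5.71 and 6.29 at breaker and fell by 1.92 (adjusted p = 0.00745), while CHS2 had 7.84 and 7.91 at pink, against 8.06 and 7.99 at breaker (log2 change -0.15, adjusted p = 0.632). F3H, the flavanone hydroxylase, had 7.30 and 7.38 at pink, against 8.66 and 8.64 at breaker and fell by 1.31 (adjusted p = 0.00594). MYB12, which controls flavonol genes, had 5.01 and 5.25 at pink, against 5 and 4.70 at breaker (log2 change 0.28, adjusted p = 0.572). The change of CHS2 was thus far smaller than that of CHS1, though its arrays did not overlap either. CHS1 was not called without breaker replicate 2 (log2 change -1.63, adjusted p = 0.0687). F3H was not called under cyclic loess normalization (log2 change -0.99, adjusted p = 0.0412). Of 10 genes of sterols, triterpenes and glycoalkaloids 3 fell. The farnesyl pyrophosphate synthase FPS1 had 4.18 and 4.62 at pink, against 7.18 and 7.42 at breaker and fell by 2.90 (adjusted p = 1.62e-04). The triterpene cyclase genes CAS1 and lTTS1 fell by 1.18 and 1.37 (adjusted p = 0.00765 and 0.00291). CAS1 was not called with only the pink and breaker arrays in the fit or without breaker replicate 2 (log2 change -1.18 to -0.89, adjusted p = 0.0586 to 0.0592). Of 10 genes of phospholipases, membrane lipids and lipid transfer 4 fell. The plastid desaturase Fad7 fell by 1.79 and the phospholipase PLDa1 by 1.44 (adjusted p = 0.00334 and 0.0369). The lipid transfer protein ltpg1, a marker of the epidermis, had 7.96 and 8.28 at pink, against 9.97 and 9.78 at breaker and fell by 1.76 (adjusted p = 0.00145), and LE16 fell by 1.48 (adjusted p = 0.0483). CD2, the cuticle regulator that is the other epidermis marker measured, had 5.68 and 5.68 at pink, against 5.64 and 5.62 at breaker (log2 change 0.05, adjusted p = 0.883). LE16 was not called under quantile normalization, under cyclic loess normalization, with array weights, with only the pink and breaker arrays in the fit, without breaker replicate 1, without red ripe replicate 1 or 2, without pink replicate 1 or 2 or without turning replicate 1 or 2 (log2 change -1.62 to -0.90, adjusted p = 0.0556 to 0.284). PLDa1 was not called under quantile normalization, under cyclic loess normalization, without breaker replicate 1 or 2, without red ripe replicate 1 or 2 or without pink replicate 1 or 2 (log2 change -1.64 to -1.09, adjusted p = 0.0514 to 0.194). Falls of this list numbered 2 under quantile and cyclic loess normalization and without any one of breaker replicate 1, red ripe replicates 1 and 2, or pink replicates 1 and 2.

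MAP kinases, which pass signals on by phosphorylation, had 7 falls among 16 members and no rise, with a median change of -0.97. MAPK8 had 3.59 and 3.10 at pink, against 6.87 and 7.60 at breaker and fell by 3.89 (standard error 0.25, adjusted p = 5.43e-05). MPK3, a kinase of wound and pathogen responses, had 1.98 and 1.46 at pink, against 4.65 and 4.48 at breaker and fell by 2.85. MAPK4, MAPK16 and MPK2 fell by 2.23, 1.81 and 1.3, and the kinases one step above, MKK2 and mek1, by 1.29 and 1.25. MAPK6 and MAPK12 had changes of 0.06 and -0.16. MAPK16 was not called without breaker replicate 2 (log2 change -1.72, adjusted p = 0.0566). MPK2 was not called under quantile normalization, under cyclic loess normalization, without breaker replicate 1 or 2 or without pink replicate 2 (log2 change -1.31 to -0.82, adjusted p = 0.0465 to 0.188). The gene mek1 was not called under quantile normalization, under cyclic loess normalization or without breaker replicate 1 (log2 change -1.03 to -0.80, adjusted p = 0.0553 to 0.0937). Of 11 calcium sensors and pumps only the calcium-dependent kinase CDPK2 was called, with 4.24 and 4.15 at pink, against 5.77 and 5.43 at breaker and a fall of 1.41 (adjusted p = 0.00105), although all 11 changes were below 0, from -1.41 to -0.25. There were 2 falls under median centering, without breaker replicate 2 or without pink replicate 1. CDPK2 was not called under quantile normalization or under cyclic loess normalization (log2 change -0.97 to -0.77, adjusted p = 0.00856 to 0.0329). Of 9 inositol phosphate genes 2 fell, the monophosphatase IMP3 by 2.17 and the phosphatase 5PT4 by 1.49 (adjusted p = 8.22e-04 and 0.00390). 5PT4 was not called under quantile normalization (log2 change -0.91, adjusted p = 0.0691).

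Of 9 genes of light signaling 1 rose and 4 fell. HY5, the bZIP factor that promotes light responses, had 5.16 and 5.12 at pink, against 4.11 and 3.41 at breaker and rose by 1.38 (adjusted p = 0.00950). The photoreceptors were lower. Cry1b, a cryptochrome for blue light, had 2.47 and 3.37 at pink, against 5.15 and 4.74 at breaker and fell by 2.03 (adjusted p = 0.00515). The phototropin PHOT2 had 2.09 and 1.89 at pink, against 3.54 and 3.68 at breaker, a fall of 1.62. PHOT1, the other phototropin, had 5.84 and 6.25 at pink, against 7.33 and 7.96 at breaker, a fall of 1.60. Phytochrome A, phyA, fell by 1.37 (adjusted p = 5.28e-04). COP1 and Det1, which hold light responses back, had changes of 0.53 and 0.39, not past the test. Falls numbered 2 under quantile normalization. HY5 was not called without breaker replicate 2 (log2 change 1.03, adjusted p = 0.0701). Cry1b was not called under quantile normalization (log2 change -1.69, adjusted p = 0.0746). The gene phyA was not called under quantile normalization or under cyclic loess normalization (log2 change -0.94 to -0.76, adjusted p = 0.00425 to 0.0170). Among the 14-3-3 proteins, which bind phosphorylated partners, 1 of 7 fell, TFT3 by 2.23 (adjusted p = 0.00595). TFT3 was not called without breaker replicate 2 (log2 change -2.04, adjusted p = 0.0553). There were 2 falls without turning replicate 1 or without turning replicate 2. Of 7 small GTPases SAR2, of vesicle traffic from the endoplasmic reticulum, fell by 1.77 (adjusted p = 4.18e-04).

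Among families of transcription factors, 3 of 7 GRAS factors fell, GRAS6 with 3.95 and 3.64 at pink, against 6.46 and 5.82 at breaker and a fall of 2.35 (adjusted p = 3.58e-04), GAI as given above, and GRAS2 by 1.31 (adjusted p = 0.0249). GRAS2 was not called under cyclic loess normalization, without breaker replicate 1 or 2 or without pink replicate 2 (log2 change -1.5 to -0.95, adjusted p = 0.0683 to 0.173). Of 21 TCP factors, regulators of growth, 2 fell and 16 of the others had mean signals under 3 at both stages. TCP11 had 5.53 and 6.40 at pink, against 7.85 and 8.37 at breaker and fell by 2.15 (standard error 0.53, adjusted p = 0.0352), and TCP12 fell by 1.04 (adjusted p = 0.0212). TCP11 was not called under quantile normalization, under cyclic loess normalization, without breaker replicate 1 or 2, without red ripe replicate 1, 2 or 3 or without pink replicate 1 (log2 change -2.41 to -1.71, adjusted p = 0.0510 to 0.215). TCP12 was not called under quantile normalization, under cyclic loess normalization, with only the pink and breaker arrays in the fit, without breaker replicate 2 or without pink replicate 1 or 2 (log2 change -1.06 to -0.54, adjusted p = 0.0560 to 0.277). Of 5 WRKY factors WRKYIId-2 fell, with 3.63 and 3.09 at pink, against 5.03 and 4.28 at breaker and a fall of 1.3 (adjusted p = 0.0255). WRKYIId-2 was not called under quantile normalization, under cyclic loess normalization, with array weights, with only the pink and breaker arrays in the fit, without breaker replicate 1 or without pink replicate 2 (log2 change -1.3 to -0.80, adjusted p = 0.0557 to 0.277). Of 11 genes of histones, Polycomb proteins and RNA silencing 2 fell. RdRP, an RNA-dependent RNA polymerase of silencing, had 4.37 and 4.67 at pink, against 6.16 and 6.18 at breaker and fell by 1.65 (adjusted p = 8.41e-04), and the Polycomb gene EZ1 fell by 1.06 (adjusted p = 0.00512). EZ1 was not called under quantile normalization, under cyclic loess normalization, without breaker replicate 2 or without pink replicate 2 (log2 change -1.02 to -0.57, adjusted p = 0.0189 to 0.0504). Of 10 genes of translation the ribosomal protein gene rpl38 fell by 1.37 (adjusted p = 0.00131), and there were 2 falls without pink replicate 2. The most strongly changed cell cycle genes were cdc2A-2 with 6.26 and 6.13 at pink, against 4.85 and 4.94 at breaker (log2 change 1.3, adjusted p = 0.139) and CycA3 with a change of -1.31 (adjusted p = 0.125).

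Transporters of ions and nutrients had 8 falls among 25 members and no rise. The plasma membrane sodium/proton exchanger sos1 had 3.61 and 2.64 at pink, against 5.68 and 6.09 at breaker and fell by 2.76 (adjusted p = 5.63e-04). The vacuolar exchanger nhx3 had 5.23 and 5.70 at pink, against 7.32 and 7.47 at breaker and fell by 1.93, and its relatives nhx4 and NHX2 fell by 1.53 and 1.55. FRO1, a ferric reductase of iron uptake, fell by 1.81, the plasma membrane proton pump LHA1 by 1.55, and the amino acid transporters AAP2 and ProT2 by 1.19 and 1.17. LHA1 was not called under quantile normalization, without breaker replicate 1 or 2 or without pink replicate 1 or 2 (log2 change -1.61 to -1.01, adjusted p = 0.0558 to 0.139). NHX2 was not called under quantile normalization (log2 change -0.93, adjusted p = 0.0503). AAP2 was not called without breaker replicate 1 (log2 change -1.05, adjusted p = 0.0717). Of 15 defense proteins 1 rose and 2 fell, and 10 of the other 12 had mean signals under 3 at both stages, among them the pathogenesis-related proteins PR-1a1, PR1b1, PR-5 and PR-P2. Among the called are LOC544001 and LOC101245043, whose descriptions come from the study's list of strongly changed genes, picked on these samples. Their calls are therefore no independent evidence about this list. Besides them, the chitinase CHI3 was called, with 3.88 and 4.18 at pink, against 5.63 and 6.35 at breaker and a fall of 1.96 (adjusted p = 0.00479). CHI3 was not called under quantile normalization (log2 change -1.39, adjusted p = 0.0669). The wound-induced leucine aminopeptidase gene LAPA2 had 7.77 and 7.45 at pink, against 8.39 and 8.33 at breaker (log2 change -0.75, adjusted p = 0.0180).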

How the data were processed

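The deposited values are log2 signals of 67795 probe sets on 9 arrays, which the authors made by RMA. This method corrects background, normalizes arrays to each other and summarizes probes. In the deposited values the arrays still differed at the upper end. The signal that 1 in 10 probe sets exceeded ran from 4.17 to 5.43 over the arrays. Per the labels, Affymetrix Expression Console and Transcriptome Analysis Console 2.0 were used. The labels give pericarp and the PureLink kit, and the methods give fruit tissue and the RNeasy kit. Dates of hybridization and strips were not given in the sources used here.

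A model with a mean for each of the stages and all 9 arrays was fitted in limma 3.58.1 (lmFit and eBayes, R 4.3.3), with 5 residual degrees of freedom, and p-values were adjusted by Benjamini-Hochberg over all probe sets. Tested on simulated data, the fit of pink minus breaker called 63% of 100 probe sets given a log2 change of 1.5 and 99% of 100 given a log2 change of 3, among 67795. It also called 9 unchanged probe sets. The simulation changed far fewer probe sets than were called here and gave a probe set the same spread at all stages. These shares therefore need not hold for the comparison itself. Genes were named by a rule, the 12 largest rises and falls with a name or description plus up to 3 called members per list in each direction, and key members not past the test; the comparison, members and lists were chosen with earlier results of these data known, and further list members (27 called genes, counting the 3 rises outside the lists) were named after their values were seen. Of 360 symbols first listed, 171 were found, and the lists were then completed from the annotation; lists by description words and promoter motifs were not analysed here. RefSeq was used for gene order only. Alternatives were the scaling of arrays (statmod 1.5.0 served array weights), filters, moderation, thresholds, probe set averaging, a replicate block and leaving out each array.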

Additional observations from a re-analysis of the deposited data

Results flagged for a closer look

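For 7 of the 24 largest changes pink also differed from turning by over 2-fold, by limma over all probe sets. HSP21 passed the adjusted p alone, with a difference of 0.97. The difference of pink minus turning was 5.78 for LOC101246642 (adjusted p = 5.03e-06), 5.115 for LOC101251362 (adjusted p = 1.56e-05) and 4.815 for LOC101251407 (adjusted p = 4.86e-05). It was 2.22 for LOC101250534 (adjusted p = 0.0296) and 1.755 for Cel2 (adjusted p = 0.00353). For the falls it was -7.385 for LOC101245043 (adjusted p = 5.03e-06) and -2.465 for LOC101243656 (adjusted p = 0.0169). The pink arrays are shared with the comparison that chose these genes.

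Probe sets without a symbol stand outside the genes described, and of 44431 such probe sets 481 rose, which is 1.08%, and 599 fell, which is 1.35%. The study's list of strongly changed genes, picked on these samples, describes 7 of those called here. A chitin-binding lectin had 7.38 and 7.52 at pink, against 1.27 and 1.37 at breaker (log2 change 6.13), and 1.27 to 1.88 on the turning and red ripe arrays. The agglutinin LOC101245043 had 3.24 and 2.68 at pink, against 10.45 and 10.68 at breaker, so that both lectins stood apart at pink, in opposite directions. A class IV heat shock protein had 10.30 and 10.64 at pink, against 4.13 and 4.83 at breaker (log2 change 5.99). An alpha-hydroxynitrile lyase had 7.70 and 7.76 at pink, against 1.60 and 3.21 at breaker (log2 change 5.325). The other 4 were lower at pink, with a log2 change of -5.42 for a scarecrow-like protein of the GRAS family, -5.315 for a cytochrome P450 like abscisic acid hydroxylase, -3.835 for a defensin and -3.315 for a probable peptide transporter. The scarecrow-like probe set had 4.11 and 5.54 at pink, against 10.24 and 10.25 at breaker, and the P450 had 2.30 and 2.49 at pink, against 8.31 and 7.11 at breaker. The cause of these changes was not tested.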

How the results depend on the processing

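The number of genes called moved mainly with the scaling of the arrays. No gene called at pink changed direction under any of the 20 alternatives. Only quantile or cyclic loess normalization or probe set averaging could have turned a call, however. The other settings keep the log2 change, shift it slightly or, because the arrays of called genes do not overlap, keep its sign. Under quantile normalization 783 genes and 1550 probe sets rose, and 1753 genes and 2365 probe sets fell. Under cyclic loess normalization 695 genes and 1366 probe sets rose, and 1911 genes fell. With no fold threshold 656 genes and 1881 probe sets rose. Leaving out 1 array gave 255 to 440 genes that rose, 2118 to 3110 that fell, and 535 to 1596 probe sets that rose and 2657 to 3994 that fell. Of these, 535 came without breaker replicate 1, 553 without breaker replicate 2 and 1596 without pink replicate 1, against 847 with all arrays. Of 142 called genes that are among the largest changes, in the lists, or named rises outside them, 87 kept their call under each alternative, 42 lost it when some array was left out and 40 under another scaling. With the replicate block, 348 genes rose and 2813 fell, 1 gene of cellulose and xyloglucan rose in place of 2, and 6 of the 142 were not called: XYL1 and LE16 (adjusted p = 0.0671 and 0.0504), XET2 and GMP (adjusted p = 0.0756 and 0.0541), and Coi1 and loxD (adjusted p = 0.0722 and 0.0652). The labels give the stages the same replicate numbers. Deviations of same-numbered arrays from their stage mean correlated by 0.03 between pink and breaker and 0.07 between pink and turning. With 2 arrays a stage the deviations mirror each other, so each pair of stages gives only 1 value. Whether same-numbered arrays share a strip, a day or a plant cannot be told from it. With 2 arrays a stage, changes of 1.5 on the log2 scale can be missed, and values near the lower end of the signals are bounded by background.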

Other observations

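Genes that changed were also set in their order along the chromosomes in RefSeq, in which 21145 genes could be placed. Of 349 genes that rose, 38 had another riser among the nearest 2 genes on either side, which is 10.9%, against 6.31% of all genes not called higher. Of the genes that fell, 46.3% had another faller that near, against 43.8% of all genes not called lower. No test was made of these shares.

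Allowing 1 gene between calls, 2 runs held 9 falls each, more than any other run. One lay on chromosome 1, among 12 neighboring genes. LOC101261467, described as a nodulin family protein, had the highest signals in it, with 8.32 and 7.99 at pink, against 10.53 and 10.65 at breaker, and fell by 2.44. LOC101258705 had 2.40 and 1.84 at pink, against 6.08 and 5.92 at breaker. LOC101254249 had 2.06 and 1.94 at pink, against 5.21 and 5.79 at breaker. Between them LOC101259590 was not called, with 5.25 and 5.84 at pink, against 5.90 and 6.10 at breaker. The other lay on chromosome 11, among 13 genes, and its widest fall was that of LOC101246780, with 4.53 and 4.43 at pink, against 8.11 and 8.52 at breaker. These genes were picked out after their values had been seen.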
